A study of Homo sapiens with 3 samples.

Results

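The genes described here are interferon-stimulated genes and the factors that regulate them, a list of 39 genes chosen by name. The list was chosen with earlier results of these data known, so the shares of all genes beside its counts only describe it. A gene was taken from the array when 1 or more probe sets carried its current or an older symbol. This found 36 of the 39 among 17185 measured genes. DDX58 was found under its current symbol RIGI, and IFIT1, IFI27 and HERC6 were not analysed here. The cells were MNNG/HOS, an established human osteosarcoma line, grown in serum-free DMEM/F12 medium. Spheres that floated off in the first 5 days were removed, and all 3 groups came from the adherent cells that stayed behind. The day 3 group received 4 ng/mL transforming growth factor beta 1 (TGF-beta1) for 3 days. The day 5 sphere group received the same dose for 5 days, and only newly floating spheres were collected from it. The untreated group was kept without the factor for 5 days as residual adherent cells. Each group was 1 culture of 1 line on 1 single-colour array, so nothing below has a replicate, and no test or standard error was possible. The labels do not say which cells of the day 3 culture were collected. Treatment, days of culture and the collected fraction therefore cannot be told apart.

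Interferons are secreted proteins that cells release when they sense viral nucleic acid. Type I interferons bind the receptor chains IFNAR1 and IFNAR2, the kinases JAK1 and TYK2 pass the signal on, and a complex containing STAT2 and IRF9 then binds the interferon-stimulated response element (ISRE) in the promoters of its target genes. The products block virus entry, translation, replication and release, and some of them sense RNA or tune the pathway itself. Interferon alpha has been tried as a treatment for osteosarcoma.

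Values are the deposited intensities on a linear scale, as the geometric mean over the probe sets of a gene, and differences are log2 differences between 2 arrays. A rule of size, at least 2-fold, took the place of a test. The median intensities of the arrays were 437 at day 3, 445 in spheres and 455 in untreated cells. Among 1123 genes with 2 probe sets, the log2 differences of the pair lay a median of 0.20 to 0.21 apart, depending on the comparison. For genes below the median level that gap was 0.31 to 0.34, and 1 gene in 10 exceeded 0.94 to 1.05, so differences of low genes are less certain. Where adding 64 to each intensity before log2, which damps low values, changed a call of a member or of a related gene named below, that value is given beside it. An intensity under 63.4, the lowest quartile of all gene values, is called near background here, since no detection calls were used. Of the 36 members, 3 (OAS1, OAS2 and TRIM22) were near background on all 3 arrays (8.33%, against 21.7% of all genes), and 8 were so on at least 1 array. The mesenchymal gene VIM was bright, at 16930.4 at day 3 and 15362 in spheres, against 15058 in untreated cells. Of the 10 mesenchymal and osteosarcoma markers, COL1A1 and COL1A2 were at least 2-fold higher at day 3, by 6.14-fold and 5.31-fold. In spheres they were higher by 4.22-fold and 6.18-fold. The untreated value of COL1A2, 36.2, was near background, and with 64 added its differences were 1.36 at day 3 and 1.52 in spheres. The list's median difference from untreated cells was 0.75 at day 3 and 0.22 in spheres, its summed intensity was 73045 at day 3 and 61481 in spheres, against 49914 in untreated cells, and its part in the differences of the members was not tested. The pan-leukocyte gene PTPRC was near background, at 25.9 at day 3, 18.5 in spheres and 21.4 in untreated cells, and so in all were 6 of 10 leukocyte markers. The summed intensity of those 10 markers was 2042 at day 3 and 3173 in spheres, against 4456 in untreated cells, lowest at day 3. CD68, a macrophage gene, made up 1001 of this at day 3 and 2248 in spheres, against 3006 in untreated cells. CSF1R, the receptor of a macrophage growth factor, ran the other way, at 153 at day 3 and 234 in spheres, against 62.4 in untreated cells, 2.45-fold and 3.74-fold higher. Its untreated value was near background. With 64 added its differences were 0.78 at day 3, short of 2-fold, and 1.24 in spheres. The part of these markers in the differences of the members was not tested. The median difference of 12 housekeeping genes was -0.06 for day 3 and 0.07 for spheres, both against untreated cells.

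Across the members, the day 3 culture stood highest most often. The day 3 array held the highest of the 3 values for 22 of 36 members (61.1%), against 35.9% of all genes. Spheres held the highest for 9 members, against 30.8% of all genes. Untreated cells held the lowest value for 21 members (58.3%), against 33.4% of all genes. At least 2-fold separated some pair of arrays for 17 members (47.2%), against 20.2% of all genes, and the other 19 stayed within 2-fold throughout. In bulk RNA, fewer cells that express a gene and less RNA per cell cannot be told apart.

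The first comparison asks which of these genes differed after 3 days of TGF-beta1. Here 10 of 36 members exceeded untreated cells by 2-fold or more (27.8%), against 5.77% of all 17185 genes. These were OASL, IFIT2, IFIT3, IFI44, IFI44L, RSAD2, BST2, XAF1, IFIH1 and DDX60. TRIM22 alone was at least 2-fold lower, as were 5.26% of all genes. The median difference of the members was 0.58, against -0.01 for all genes, and 29 of 36 lay above 0, against 49.5% of all genes. The second asks the same of the spheres, in which 9 members were at least 2-fold higher than in untreated cells, against 4.90% of all genes, and 4 were at least 2-fold lower (11.1%), against 5.00% of all genes. The 9 were OASL, IFIT2, IFI44, IFITM1, HERC5, RSAD2, BST2, IFIH1 and DDX60, and the 4 were USP18, DDX58, PARP9 and DTX3L. The median of all 36 was 0.16, against 0.01 for all genes, and 23 lay above 0, against 50.5% of all genes. Both comparisons use the same untreated array, so the second is no repeat of the first. Between the treated cultures, 0 members were at least 2-fold higher in spheres than at day 3, against 5.78% of all genes. OASL, USP18, XAF1 and PARP9 were at least 2-fold lower in spheres, 4 of 36 (11.1%) against 4.72% of all genes. The median of that comparison was -0.46, against -0.04 for all genes, and 11 of 36 members lay above 0, against 47.0% of all genes.

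**Figure D1:**
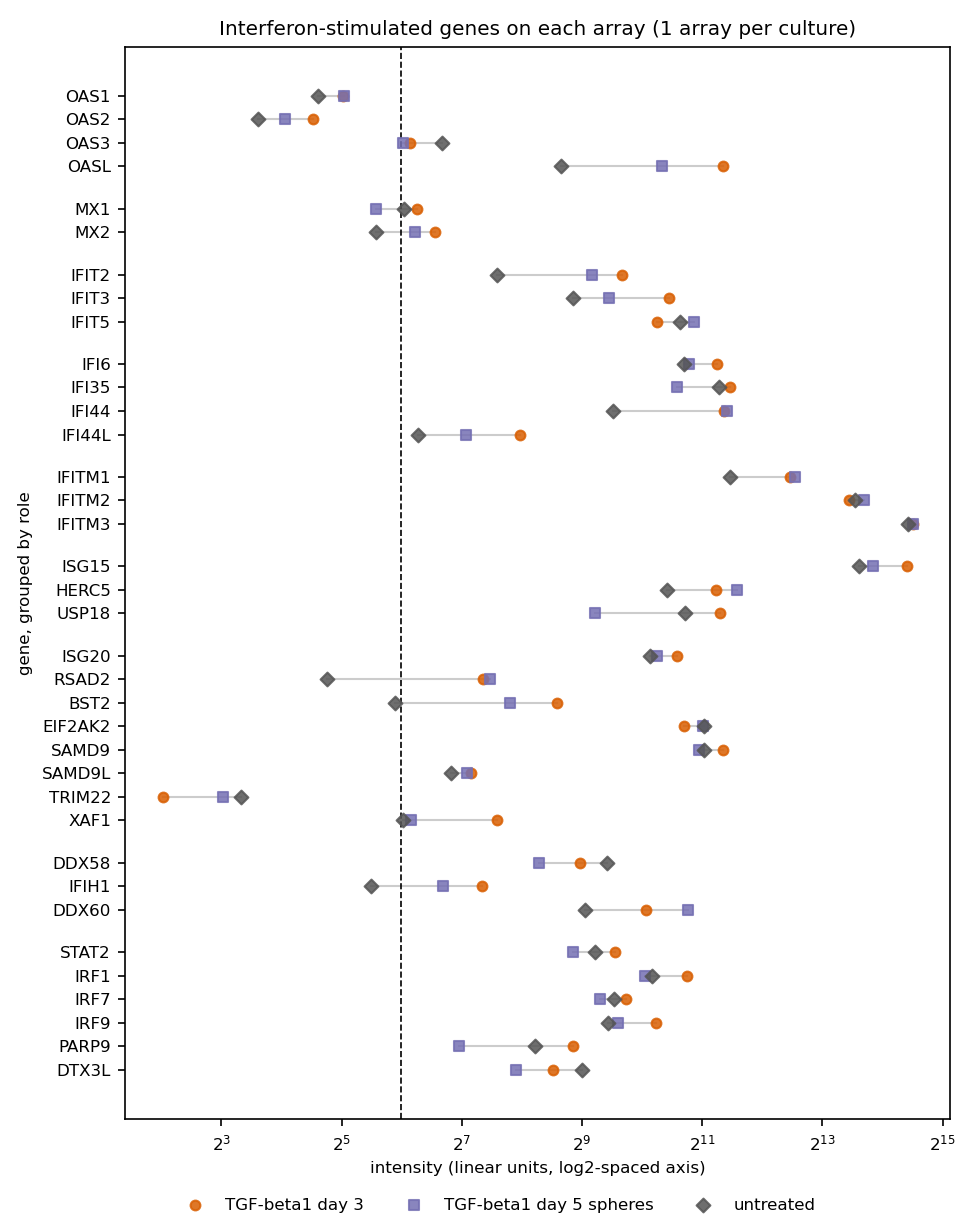
Intensity of the 36 measured members on the 3 arrays, on a log2-spaced axis. Circles are the TGF-beta1 day 3 culture, squares the TGF-beta1 day 5 spheres and diamonds the untreated cells, with 1 array each. The dashed line marks an intensity of 63.4, the lowest quartile of all gene values. Genes are grouped by role. Of the 17 members with at least 2-fold between some pair of arrays, 7 had their highest value at day 3 and their lowest in untreated cells, and 5 had their highest in spheres and their lowest in untreated cells.

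**Figure D2:**
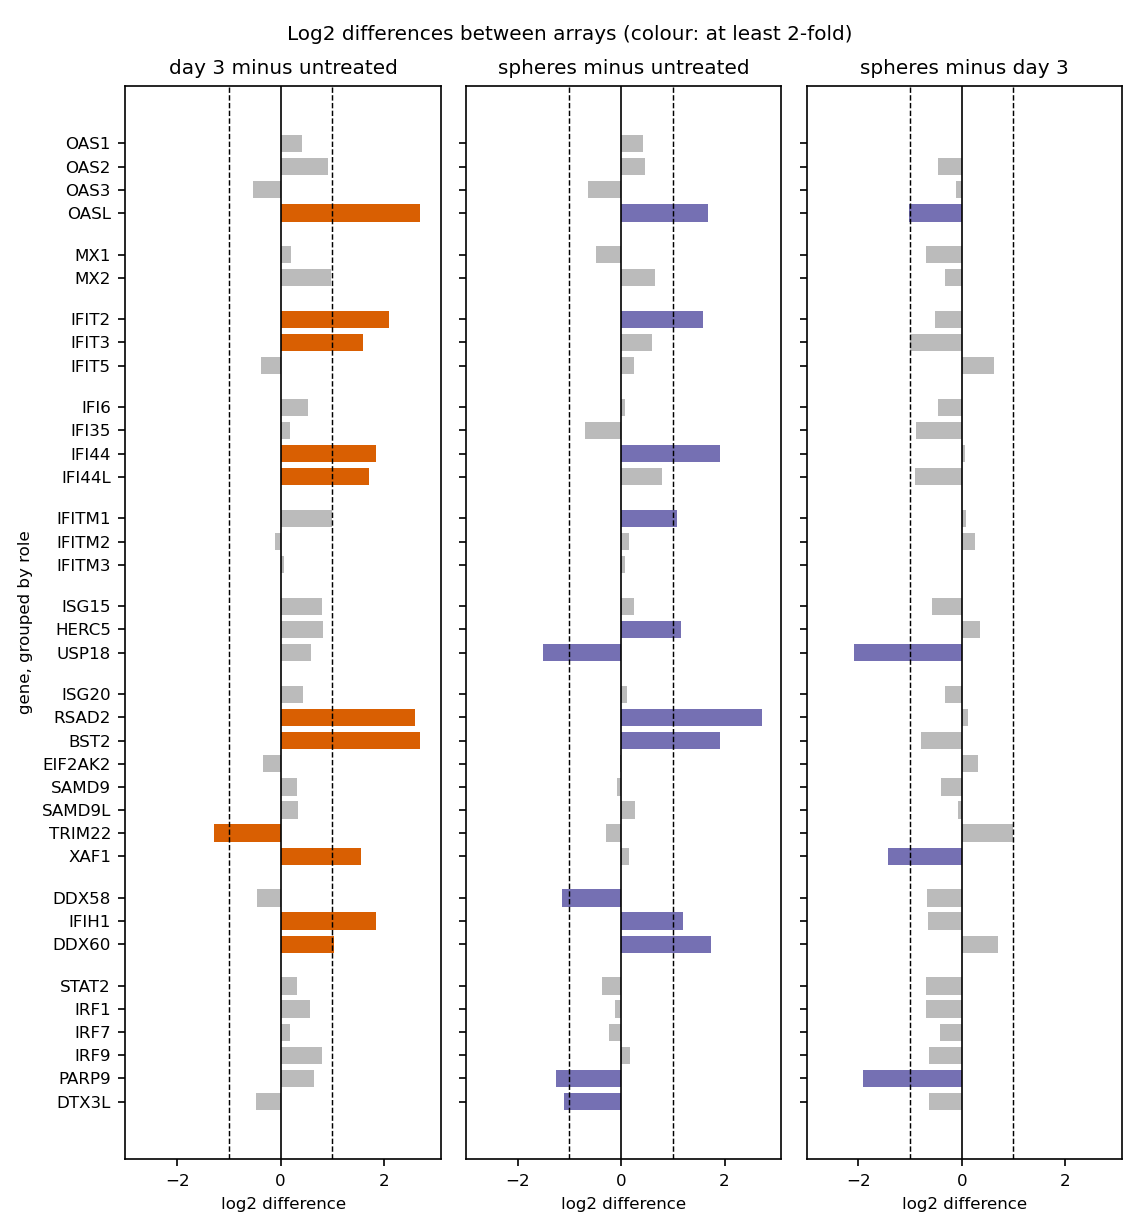
Log2 difference of each measured member in the 3 comparisons, with coloured bars at or past the dashed 2-fold lines. At day 3 the coloured bars point up for 10 members and down for TRIM22. In spheres they point up for 9 and down for 4 against untreated cells.

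The share of genes past 2-fold depends on level, so the members were also read within quartiles of mean level. In the second-lowest quartile, 6 of 13 members exceeded untreated cells by 2-fold or more at day 3, against 11.5% of 4296 genes there. In the third quartile, 4 of 15 were, against 5.47% of genes. None of the 4 members in the lowest quartile and none of the 4 in the highest were, against 4.79% and 1.30% of genes. For spheres against untreated cells the counts higher were 4 of 13 and 4 of 15 in the 2 middle quartiles, against 9.73% and 4.28% of genes, and 1 of 4 in the highest. The 4 members at least 2-fold lower in spheres also lay in the middle quartiles, 3 and 1, where 9.31% and 5.96% of genes were. Between spheres and day 3, 2 of 13 and 2 of 15 members there were lower, against 9.05% and 6.59% of genes. In the same quartiles 0 members were higher, against 12.8% and 5.56% of genes.

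**Figure D3:**
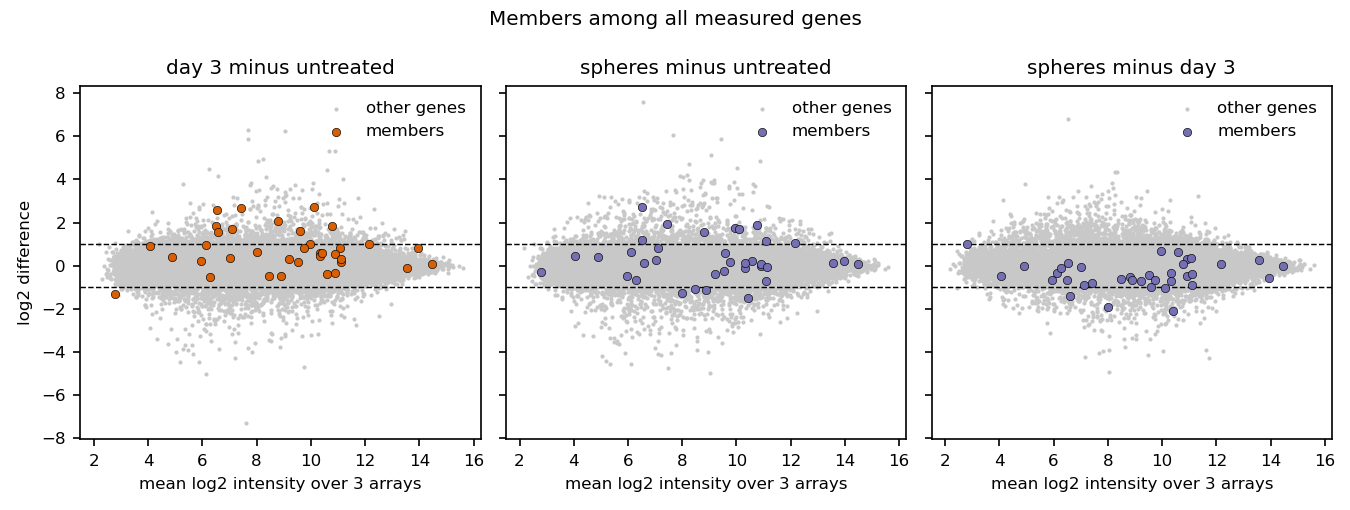
Mean log2 intensity over the 3 arrays (horizontal) against the log2 difference (vertical) for all 17185 genes (grey) and the 36 members (coloured). Dashed lines mark 2-fold. Genes of middle level spread most, and the brightest members lie within or close to the 2-fold lines.

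Promoter windows of 31 of the 39 listed genes were given by RefSeq on GRCh38.p14, from 250 bases before the start of the gene to 50 after it. The core of the ISRE, GAAANNGAAA on either strand, occurred in a window of 22 of these 31 genes (71.0%), against 4.38% of 27305 genes with a window. The core of the gamma-activated site, TTCNNNGAA, the motif of STAT dimers, occurred in 9 of 31 (29.0%), against 9.38% of genes. These members are chosen for their response to interferon, so the share is a property of the list and not a result of the treatment. Of the 20 measured members with the ISRE core, 7 passed 2-fold above untreated cells at day 3, with a median of 0.73. Of the 8 measured members with a window and no such core, 1 did, with a median of 0.38, against 5.77% of all genes. The search allowed only a spacing of 2 bases, so these windows are not shown to lack every form of the element. Windows of OAS1, DDX58, XAF1 and IFI35 hold GAAA repeats 1 base apart, which were not counted as cores. In spheres 7 of the 20 and 0 of the 8 were at least 2-fold higher than in untreated cells, against 4.90% of all genes, and 2 and 1 were lower, against 5.00% of all genes, with medians of 0.24 and 0.01. Between spheres and day 3 the medians were -0.36 with the core and -0.68 without it. Whether members with and without the core differ was not tested. A match was found both in members past 2-fold and in members short of it. The windows below show this, with each ISRE core in capitals, 5′ to 3′ on the strand of the gene.
BST2, RSAD2 and IFI44 are shown because they were among the members furthest above untreated cells. IFITM1 and IFITM3 are neighbours of 1 family, of which IFITM1 passed 2-fold in spheres and IFITM3 stayed nearly level. DTX3L is shown because its window overlaps that of PARP9, which is read on the other strand.
BST2 chr19:17405581-17405880 minus strand: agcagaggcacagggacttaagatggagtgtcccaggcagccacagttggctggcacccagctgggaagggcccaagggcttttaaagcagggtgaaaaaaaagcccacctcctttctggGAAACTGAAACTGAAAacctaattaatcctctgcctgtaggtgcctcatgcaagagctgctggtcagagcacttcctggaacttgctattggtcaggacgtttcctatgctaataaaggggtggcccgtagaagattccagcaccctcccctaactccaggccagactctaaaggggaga
RSAD2 chr2:6877527-6877826 plus strand: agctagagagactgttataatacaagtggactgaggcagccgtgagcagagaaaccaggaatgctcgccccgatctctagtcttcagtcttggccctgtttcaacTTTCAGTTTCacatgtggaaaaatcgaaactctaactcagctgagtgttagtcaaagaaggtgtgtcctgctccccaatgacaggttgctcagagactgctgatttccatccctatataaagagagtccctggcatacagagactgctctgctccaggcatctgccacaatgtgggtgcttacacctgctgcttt
IFI44 chr1:78649539-78649838 plus strand: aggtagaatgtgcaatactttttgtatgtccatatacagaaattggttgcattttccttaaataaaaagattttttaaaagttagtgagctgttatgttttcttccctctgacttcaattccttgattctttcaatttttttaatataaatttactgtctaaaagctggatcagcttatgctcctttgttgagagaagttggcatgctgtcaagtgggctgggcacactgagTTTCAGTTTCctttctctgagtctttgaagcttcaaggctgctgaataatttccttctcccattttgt
IFITM1 chr11:313790-314089 plus strand: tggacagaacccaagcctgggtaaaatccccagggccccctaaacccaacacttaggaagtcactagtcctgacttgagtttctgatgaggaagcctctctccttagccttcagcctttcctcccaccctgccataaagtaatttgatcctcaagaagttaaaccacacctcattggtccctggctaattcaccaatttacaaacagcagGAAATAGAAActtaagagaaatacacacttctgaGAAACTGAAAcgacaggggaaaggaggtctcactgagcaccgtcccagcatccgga
IFITM3 chr11:320811-321110 minus strand: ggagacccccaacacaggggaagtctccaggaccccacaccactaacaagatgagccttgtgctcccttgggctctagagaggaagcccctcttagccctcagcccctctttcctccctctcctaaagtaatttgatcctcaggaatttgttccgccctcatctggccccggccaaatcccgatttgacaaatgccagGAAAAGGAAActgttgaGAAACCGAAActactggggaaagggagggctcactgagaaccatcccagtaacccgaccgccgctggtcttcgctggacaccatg
DTX3L chr3:122564088-122564387 plus strand: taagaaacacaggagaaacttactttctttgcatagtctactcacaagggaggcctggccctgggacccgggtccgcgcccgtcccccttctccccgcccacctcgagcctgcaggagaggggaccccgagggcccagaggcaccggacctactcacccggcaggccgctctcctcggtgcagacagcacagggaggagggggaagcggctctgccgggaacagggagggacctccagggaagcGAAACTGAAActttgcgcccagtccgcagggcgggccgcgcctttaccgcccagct
The BST2 window holds 2 overlapping cores that start 130 bases before the gene. RSAD2 and IFI44 hold 1 core each in reverse orientation, 145 and 18 bases before the start of the gene. Both genes have a further window in RefSeq that is not printed. The one of RSAD2, chr2:6865635-6865934, holds 0 cores of the spacing searched, but it does hold GAAA repeats 1 base apart. In the one of IFI44, chr1:78649581-78649880, the same core lies 60 bases before the start. IFITM1 and IFITM3 hold 2 cores each. The DTX3L window shares 137 bases, chr3:122564251-122564387, with the nearest PARP9 window, and its single core, at chr3:122564332-122564341, is the same stretch that the search found for PARP9.

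The oligoadenylate synthetases make a messenger that activates RNase L, which degrades RNA, whereas OASL lacks that activity and enhances RNA sensing. OASL was the family member that differed. It had an intensity of 2606 at day 3 and 1289 in spheres, against 399.9 in untreated cells. That is 6.52-fold higher at day 3 and 3.22-fold higher in spheres than in untreated cells, and 2.02-fold lower in spheres than at day 3, a difference of -0.98 with 64 added to each intensity. Both of its probe sets ran in this order, at 6.36-fold and 6.68-fold higher at day 3 than in untreated cells. The enzymatic members were low. OAS1 had 32.6 at day 3 and 32.8 in spheres, against 24.4 in untreated cells, and OAS2 had 23.0 at day 3 and 16.7 in spheres, against 12.1 in untreated cells. OAS3 had 70.7 at day 3 and 65.2 in spheres, against 102 in untreated cells, so it was the one family member highest in untreated cells. Of the 3 OAS2 probe sets, 2 were over 2-fold higher at day 3 than in untreated cells, at intensities near background, and with the brightest probe set alone its difference was 1.19.

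The dynamin-like GTPases MX1 and MX2, which trap viral nucleocapsids, were also low. MX2 had 93.7 at day 3 and 74.7 in spheres, against 47.6 in untreated cells, a difference of 0.98 at day 3 that fell just short of 2-fold. MX1 had 76.2 at day 3 and 47.5 in spheres, against 66.1 in untreated cells. Neither reached 2-fold in any comparison as deposited, while MX2 passed it at day 3, at 1.03, with arrays centred on their medians.

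Some IFIT proteins bind viral RNA that lacks the marks of the host. IFIT2 had 815 at day 3 and 572 in spheres, against 191 in untreated cells, and was 4.26-fold higher at day 3 and 2.99-fold higher in spheres. IFIT3 had 1398 at day 3 and 701 in spheres, against 461 in untreated cells. It was 3.03-fold higher at day 3 and 1.52-fold higher in spheres, the second of these short of 2-fold. Its difference between spheres and day 3, -0.995, was just short of 2-fold and just past it, at -1.02 and -1.03, with arrays centred on their medians or quantile normalized. IFIT5, an RNA-binding member, ran differently, at 1222 at day 3 and 1874 in spheres, against 1588 in untreated cells, with day 3 the lowest array.

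Among the genes named IFI, IFI44 and its paralogue IFI44L were the ones past 2-fold. IFI44 had 2629 at day 3 and 2734 in spheres, against 731 in untreated cells. Its differences from untreated cells were 1.85 at day 3 and 1.90 in spheres, while the treated arrays lay 0.06 apart. IFI44L had 252 at day 3 and 134 in spheres, against 77.1 in untreated cells, and was 3.27-fold higher at day 3 and 1.74-fold higher in spheres. IFI6, which acts against cell death, had 2418 at day 3 and 1751 in spheres, against 1670.1 in untreated cells. IFI35 had 2825 at day 3 and 1533 in spheres, against 2480.2 in untreated cells, so spheres were lowest, by a difference of -0.69 from untreated cells.

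The IFITM proteins sit in membranes and hinder the fusion of entering viruses. IFITM1, mostly at the cell surface, had 5648 at day 3 and 5958 in spheres, against 2830.2 in untreated cells. Its differences from untreated cells were 0.997 at day 3 and 1.07 in spheres. The first was just short of 2-fold and passed it, at 1.05 and 1.03, with arrays centred on their medians or quantile normalized. IFITM2 had 11075 at day 3 and 13273 in spheres, against 11985 in untreated cells. IFITM3 had 23194 at day 3 and 23235 in spheres, against 22081 in untreated cells. The 3 arrays thus agree within 1.20-fold for IFITM2 and 1.05-fold for IFITM3. These genes are close copies of each other, so their probes can share signal.

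ISG15 is a ubiquitin-like protein that is joined to other proteins, HERC5 is the ligase that attaches it, and USP18 removes it and also dampens signalling at the interferon receptor. ISG15 had 21830.4 at day 3 and 14716 in spheres, against 12469 in untreated cells, and was 1.75-fold higher at day 3 and 1.18-fold higher in spheres. HERC5 had 2414 at day 3 and 3069.7 in spheres, against 1369.9 in untreated cells, and was 1.76-fold higher at day 3 and 2.24-fold higher in spheres. The order of the arrays was different for USP18. It had 2529 at day 3 and 593 in spheres, against 1684.5 in untreated cells, which placed spheres 2.84-fold below untreated cells and 4.26-fold below day 3. That was the most negative difference of any member between spheres and day 3.

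Of the 8 other antiviral effectors, RSAD2, BST2 and XAF1 stood more than 2-fold above untreated cells at day 3. RSAD2, which encodes viperin, an enzyme that makes a chain-terminating nucleotide, had 163 at day 3 and 178 in spheres, against 26.95 in untreated cells. BST2, which encodes tetherin, a protein that holds budding virus at the cell surface, had 382 at day 3 and 223 in spheres, against 59.0 in untreated cells. Both untreated values were near background, so the size of the folds is uncertain. RSAD2 was 6.03-fold higher at day 3 and 6.60-fold higher in spheres, and with 64 added to each intensity these log2 differences were 1.32 and 1.41. BST2 was 6.48-fold higher at day 3 and 3.77-fold higher in spheres, and with 64 added the log2 differences were 1.86 and 1.22, all still past 2-fold. XAF1, a gene that promotes cell death, had 192 at day 3 and 71.6 in spheres, against 64.8 in untreated cells, so only the day 3 array stood apart. With 64 added, its difference from untreated cells at day 3 was 0.99 and its difference between spheres and day 3 was -0.91, both short of 2-fold.

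The remaining effectors stayed within 1.36-fold of untreated cells on both treated arrays, except for TRIM22. ISG20, an exonuclease gene, had 1525 at day 3 and 1217 in spheres, against 1123 in untreated cells. EIF2AK2, which encodes the kinase PKR that halts translation when it binds double-stranded RNA, had 1652 at day 3 and 2056 in spheres, against 2084 in untreated cells. SAMD9 had 2609 at day 3 and 1983 in spheres, against 2097 in untreated cells. Its paralogue SAMD9L, low on all arrays, had 143 at day 3 and 136 in spheres, against 113 in untreated cells. TRIM22 had 4.08 at day 3 and 8.11 in spheres, against 10.0 in untreated cells. These values lie near the lowest of each array, which started at 3.04 at day 3, 3.20 in spheres and 2.37 in untreated cells, so its 2.45-fold difference at day 3 is between values near background and was -0.12 on the log2 scale with 64 added.

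The cytoplasmic RNA sensors did not run in 1 direction. IFIH1, which encodes MDA5, a sensor of long double-stranded RNA, had 161 at day 3 and 103 in spheres, against 44.8 in untreated cells. It was 3.60-fold higher at day 3 and 2.30-fold higher in spheres than this untreated value, which was near background. With 64 added, its difference in spheres was 0.62 instead of 1.20. DDX60, a helicase gene of the same response, had 1074 at day 3 and 1749 in spheres, against 528 in untreated cells, so the spheres were highest, at 3.31-fold above untreated cells. At day 3 it was 2.04-fold higher, and with 64 added that difference was 0.94, short of 2-fold. DDX58, which encodes RIG-I, a sensor of RNA with a triphosphate end, ran the other way. It had 498 at day 3 and 311 in spheres, against 686 in untreated cells, 2.21-fold lower in spheres.

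None of the 6 transcriptional regulators reached 2-fold at day 3, against 5.77% of all genes higher and 5.26% lower. On that array 5 of the 6 were highest, against 35.9% of all genes. IRF9, the DNA-binding part of the STAT2 complex, had 1206 at day 3 and 773 in spheres, against 688 in untreated cells, a difference of 0.81 at day 3. STAT2 had 747 at day 3 and 463 in spheres, against 596 in untreated cells. IRF1, a transcription factor induced strongly by interferon gamma, had 1710.2 at day 3 and 1057 in spheres, against 1154 in untreated cells. IRF7, which drives interferon alpha genes, had 848 at day 3 and 632 in spheres, against 744 in untreated cells, and its 2 probe sets had the same order. STAT2, IRF1 and IRF7 thus had their highest value at day 3 and their lowest in spheres.

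PARP9 and DTX3L encode partner proteins, an ADP-ribosyltransferase family member and a ubiquitin ligase, and their genes start from the shared promoter printed above. PARP9 had 464 at day 3 and 123 in spheres, against 297 in untreated cells. It was 1.56-fold higher at day 3, 2.41-fold lower in spheres than in untreated cells and 3.76-fold lower in spheres than at day 3. DTX3L had 368 at day 3 and 238 in spheres, against 510 in untreated cells, so it was lower than in untreated cells on both treated arrays, by 1.38-fold at day 3 and 2.14-fold in spheres. The partners therefore differed in sign at day 3, at 0.64 for PARP9 and -0.47 for DTX3L, and had the same sign in spheres. With 64 added both differences in spheres fell short of 2-fold, at -0.95 for PARP9 and -0.93 for DTX3L. All 6 regulators were lower in spheres than at day 3, by log2 differences from -0.42 to -1.91. Of the 6, PARP9 alone was past 2-fold, against 4.72% of all genes.

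Upstream of these genes, interferon transcripts themselves were low. Of 20 interferon genes measured, 0 differed by 2-fold in any comparison, against 20.2% of all genes. On all 3 arrays 16 were near background, against 21.7% of all genes. The others, named after their values were seen, were IFNL3, IFNE and IFNA21, above that line on all 3 arrays, and IFNA14, above it in spheres only. IFNL3 was the brightest, at 217 at day 3 and 176 in spheres, against 151 in untreated cells. IFNB1, the type I interferon that most cells make first, had 12.9 at day 3 and 10.9 in spheres, against 20.9 in untreated cells. IFNG, the type II interferon of lymphocytes, had 17.9 at day 3 and 14.6 in spheres, against 15.6 in untreated cells. These values do not tell whether a low transcript was present.

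The receptor genes were measurable. IFNAR1 had 2666 at day 3 and 1467 in spheres, against 2340.03 in untreated cells, and IFNAR2 had 1675 at day 3 and 2769.7 in spheres, against 1651 in untreated cells. Neither reached 2-fold against untreated cells. Of the 9 receptor and kinase genes, 0 stood 2-fold or more above untreated cells at day 3 and 2 stood below, JAK2 and IFNLR1. The shares of all genes were 5.77% and 5.26%. In spheres 0 were higher and IFNLR1 was lower, against 4.90% and 5.00% of all genes. IFNLR1, the specific chain of the receptor for type III interferons, had 173 at day 3 and 76.5 in spheres, against 353 in untreated cells. With 64 added to each intensity, the day 3 differences of JAK2 and IFNLR1 fell short of 2-fold, at -0.86 and -0.82. JAK2 and IFNLR1 are below the median level and were named after their values were seen.

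At day 3, 5.77% of all genes stood 2-fold or more above untreated cells and 5.26% below. Of the 15 measured sensing adaptors and kinases, 1 stood that far above and 1 below (6.67% each). The first was the kinase gene IKBKE, named after its values were seen, with a difference of 1.52. CGAS, a sensor of DNA in the cytosol, was the second, at 1696 at day 3 and 3975 in spheres, against 4884 in untreated cells, 2.88-fold lower at day 3. In spheres TLR3 and TLR4, also named after their values were seen, were lower by differences of -1.03 and -1.04. In that direction 5.00% of all genes passed 2-fold. With 64 added the differences of TLR3 and TLR4 were -0.44 and -0.87, short of 2-fold. Of 14 measured negative regulators, SOCS2 was 3.60-fold lower at day 3, at 1047 at day 3 and 2533 in spheres, against 3772 in untreated cells. No other member of that list differed by 2-fold from untreated cells on either treated array. The share lower at day 3 was thus 7.14%, against 5.26% of all genes.

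Interferon-induced genes outside the list had median differences from untreated cells of 0.07 at day 3 and -0.18 in spheres, and of -0.28 between spheres and day 3. Of 35 such genes, 2 reached 2-fold above untreated cells at day 3 and LAMP3 was that far below. These shares were 5.71% and 2.86%, against 5.77% and 5.26% of all genes. In spheres UBE2L6 and TDRD7 were higher and LAMP3, SP100 and GMPR lower, all but UBE2L6 named after their values were seen. The shares in spheres were 5.71% and 8.57%, against 4.90% and 5.00% of all genes. With 64 added, LAMP3 fell short of 2-fold at day 3 and in spheres, at -0.85 and -0.84, and TDRD7 in spheres, at 0.86. The 2 higher at day 3 were UBE2L6 and CCL5, the second a chemokine gene named after its values were seen, at a difference of 1.98. UBE2L6, the enzyme that passes ISG15 to HERC5, had 2111 at day 3 and 1736 in spheres, against 611 in untreated cells. It was 3.46-fold higher at day 3 and 2.84-fold higher in spheres. Like HERC5, this partner of the ISG15 system was above untreated cells on both treated arrays. The highest value of UBE2L6 was at day 3, and that of HERC5 was in spheres. NT5C3A, a nucleotidase gene, had 3406 at day 3 and 7084 in spheres, against 6220 in untreated cells. Of the 35, it alone was at least 2-fold higher in spheres than at day 3, while CCL5, GMPR and SP100 were at least 2-fold lower. These shares were 2.86% and 8.57%, against 5.78% and 4.72% of all genes. With 64 added SP100 fell short there, at -0.77. Whether the members differ from these 35 genes was not tested.

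Targets that respond most to interferon gamma went both ways. Of 23 measured, GBP2, APOL1 and FAM26F were past 2-fold above untreated cells at day 3, and IRF8, CD274 and TAP2 below them. These shares were 13.0% each, against 5.77% and 5.26% of all genes, and the list's median was 0.12. In spheres FAM26F was higher and GBP2, GBP3 and IRF8 were lower, with a median of -0.22. The shares were 4.35% and 13.0%, against 4.90% and 5.00% of all genes. With 64 added, FAM26F at 0.81 and IRF8 at -0.86 fell short at day 3, and GBP3 at -0.93 and IRF8 at -0.91 in spheres. Of these genes APOL1 and TAP2 met the rule for naming, and the others were named after their values were seen. APOL1, an apolipoprotein gene, had 2876.5 at day 3 and 1282 in spheres, against 1278 in untreated cells. APOL2 had 1533 at day 3 and 647 in spheres, against 1246 in untreated cells, and was 2.37-fold lower in spheres than at day 3. TAP2, a peptide transporter subunit of antigen presentation, had 1205 at day 3 and 1496 in spheres, against 2567 in untreated cells. The 9 genes of MHC class I, which interferons also raise, were all above untreated cells on both treated arrays. Their medians were 0.41 at day 3 and 0.18 in spheres. Of the 9, 0 reached 2-fold, against 5.77% of all genes higher at day 3 and 4.90% in spheres.

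**Figure D4:**
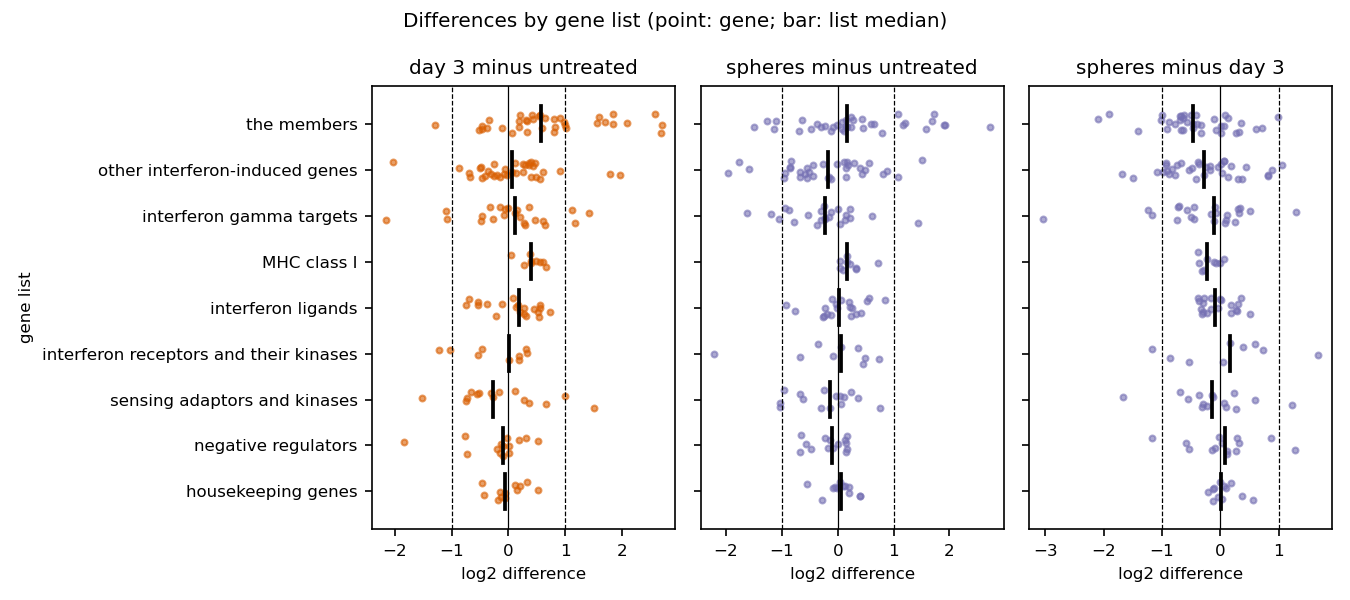
Log2 differences by gene list in the 3 comparisons, where each point is a gene, black bars are list medians and dashed lines mark 2-fold. The lists are the members, other interferon-induced genes, interferon gamma targets, MHC class I, ligands, receptors and their kinases, sensing adaptors, negative regulators and housekeeping genes. Among these the members have the highest median at day 3, at 0.58, and the lowest between spheres and day 3, at -0.46, while the mesenchymal markers, which are not drawn, had 0.75 at day 3.

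Markers of other cells were set beside these values. Of 6 plasmacytoid dendritic cell markers, a cell type known for making interferon, CLEC4C and IL3RA were near background. The list's summed intensity was 3569 at day 3 and 5940.3 in spheres, against 3223 in untreated cells. Most of it was TCF4, which mesenchymal cells also express, at 3029 at day 3 and 5571 in spheres, against 2641 in untreated cells. IRF8 ran the other way, at 151 at day 3 and 143 in spheres, against 326 in untreated cells. LILRA4 had 221 at day 3 and 75.6 in spheres, against 124 in untreated cells. GZMB had 106 at day 3 and 105 in spheres, against 79.9 in untreated cells. Of 6 endothelial markers 4 were near background, while PECAM1 had 944 at day 3 and 171 in spheres, against 65.6 in untreated cells. CDH5 had 126 at day 3 and 118 in spheres, against 110 in untreated cells. KDR, near background, ran the other way, at 11.7 at day 3 and 8.64 in spheres, against 55.0 in untreated cells. The summed endothelial intensity was 1129 at day 3, most of it PECAM1, and 339 in spheres, against 281 in untreated cells. The part of these markers in the differences of the members was not tested.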

How the data were processed

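Total RNA of 3 MNNG/HOS cultures was labelled with Cy3, per the labels' protocols. Each array has 45033 deposited intensity values, 1 for each probe set, and the submitters' processing notes name RMA as the method. The intensity values deposited by the authors are linear. RMA usually ends on a log2 scale, and the way back to linear values, the version and the array's build are each not given in the sources used here. RMA makes the arrays' distributions alike, which hides any shift of most genes together.

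The log2 of each intensity was taken with no offset. The platform's gene table named 18188 probe sets, brought to today's symbols by gene identifier, and RefSeq accessions of GRCh38.p14 named 678 more. A gene's value is the mean log2 over its probe sets (4 members have several). With 1 array per group there was no test, and the array number limits precision. Genes called at 2-fold are given beside the share of all genes. The members and gene lists were chosen with earlier results of these data known.

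Every measured member is named. Members past 2-fold between any 2 arrays and the 6 regulators have full values. Related lists give up to 4 genes past 2-fold whose mean reaches the median level, an intensity of 679, and exceptions are stated. Python 3.11.15, numpy 2.4.6 and pandas 2.3.3 were used. The calls were tested on simulated data with 3-fold shifts and little noise put in, which checks the code and not the error of these arrays. Alternatives were other summaries of probe sets, an offset of 64, median centring, quantile normalization, a level filter and 1.5-fold and 3-fold thresholds.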

Additional observations from a re-analysis of the deposited data

How the results depend on the processing

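No paired analysis was possible because each group has 1 array. The medians of the members kept their sign and stayed within 1.5 times in the 3 comparisons under all 6 alternatives tried on them. With members at or above the median level only, 19 of the 36, which leaves fewer genes by construction, the count at least 2-fold higher was 4 at day 3 and 5 in spheres, both against untreated cells, and the counts lower were 0 and 1, and 2 between spheres and day 3. These members lie in the third and highest quartiles of mean level. There 5.47% and 1.30% of genes were higher at day 3, and 4.28% and 1.26% in spheres. Lower were 4.31% and 0.419% at day 3, 5.96% and 0.978% in spheres, and 6.59% and 1.19% between spheres and day 3. With 64 added to each intensity, which shrinks differences of low genes, the counts lower were 0 at day 3, 2 in spheres and 2 between spheres and day 3, against 2.53%, 3.08% and 3.07% of all genes. At a 1.5-fold threshold 18 members were higher at day 3, against 15.3% of all genes, and between spheres and day 3 there were 3 higher and 15 lower, against 13.1% and 13.2% of all genes. At 3-fold, 5 were higher in spheres than in untreated cells, against 1.76% of all genes, and 0, 0 and 2 were lower at day 3, in spheres and between spheres and day 3, against 1.59%, 1.75% and 1.37% of all genes. Quantile normalization gave 1 member, TRIM22, higher in spheres than at day 3, and the cause was not tested. The other counts, including the number near background under the bound from 361 olfactory receptor genes (intensity 43.7), stayed within 1.5 times. Of 540 values of the 36 members under 5 alternatives, 525 kept their side of 2-fold, 8 fell short (all with 64 added), 7 passed it and 0 changed sign while called. Median centring moved the median of all genes by at most 0.06. With 64 added, an alternative chosen for the related lists after seeing the data, 26 of their 40 calls at 2-fold remained and 14 fell short.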
